A study of Mus musculus with 8 samples.

Results

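Methionine and one-carbon enzymes of the liver were examined in mice that received the gut microbe-derived metabolite 4-HPAA (4-hydroxyphenylacetic acid) through the portal vein. The genes were Mat1a, Gnmt, Ahcy, Bhmt, Mtr, Cbs, Cth, Shmt1 and Shmt2. They were chosen by name for their place in the pathway, with earlier results of these data known. These were 9 of the 35975 genes to which the quantified transcripts belonged. Of those genes, 12883 reached 10 counts in each of the 8 libraries and entered the test, and all 9 enzymes were among them.

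Liver RNA was sequenced from 8 C57BL/6 mice, young adults per the study's methods, of which 4 received normal saline and 4 received 4-HPAA intraportally for 2 weeks. Both groups thus carried the portal catheter and the pump, and differed in what was infused. The sex of each mouse is not given in the labels. All 4 of the Y-linked genes examined (Ddx3y, Uty, Kdm5d and Eif2s3y) had at least 415 counts in every library, so all 8 livers read as male. Nothing read here says more of how the mice of a group were related, so p-values measure the spread between these 8 libraries.

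Total estimated counts ranged from 29559978 to 30673398 per library and did not separate the groups (exact permutation test, two-sided, p = 0.343). All 6 hepatocyte markers (Alb, Apoa1, Ttr, Serpina1a, Cps1 and Tat) were above 10 counts in every library, with a summed level of 95370 to 127600 CPM (counts scaled to library size, with TMM factors). Of 5 pancreatic acinar markers, 4 had 3 counts or fewer in every library and 2 of those were at 0 throughout. In whole liver, fewer cells of a type and less RNA per cell cannot be told apart.

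The liver is the main site of methionine breakdown. Methionine adenosyltransferase (Mat1a in adult liver) makes S-adenosylmethionine, the methyl donor of the cell, glycine N-methyltransferase (Gnmt) uses the surplus to methylate glycine, and S-adenosylhomocysteine hydrolase (Ahcy) cleaves the product to homocysteine and adenosine. Homocysteine is either remethylated, with betaine by Bhmt or with methylfolate and cobalamin by methionine synthase (Mtr), or drawn into cysteine by cystathionine beta-synthase (Cbs) and cystathionine gamma-lyase (Cth), while the serine hydroxymethyltransferases Shmt1 (cytosolic) and Shmt2 (mitochondrial) load one-carbon units from serine onto folate.

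The 9 genes took between 0.936% and 1.30% of all estimated counts of a library. To compare genes with each other, counts were divided by annotated exon length and scaled to the same total in each library (TPM). Mat1a had a median of 2021 TPM over the 8 libraries, Ahcy 1969 TPM and Gnmt 1935 TPM, and by mean TPM the 3 genes were numbers 66 to 68 of all genes. Their order was not resolved, since Mat1a was above Ahcy in 5 of 8 libraries and Ahcy above Gnmt in 3 of 8. Bhmt followed at 1317 TPM, below Gnmt in 8 of 8 libraries although the ranges touched.

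The transsulfuration genes stood lower, with Cth at a median of 236 TPM and Cbs at 169 TPM. Every one of the 8 libraries had more Cth than Cbs per length, while their ranges over libraries overlapped. Shmt2 (133 TPM) and Shmt1 (131 TPM) were not ordered, with Shmt2 higher in 4 of 8 libraries. Mtr was far below all the others at 2.65 TPM, between 2.06 and 3.44 TPM in single libraries, and was number 9567 of all genes.

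**Figure D1:**
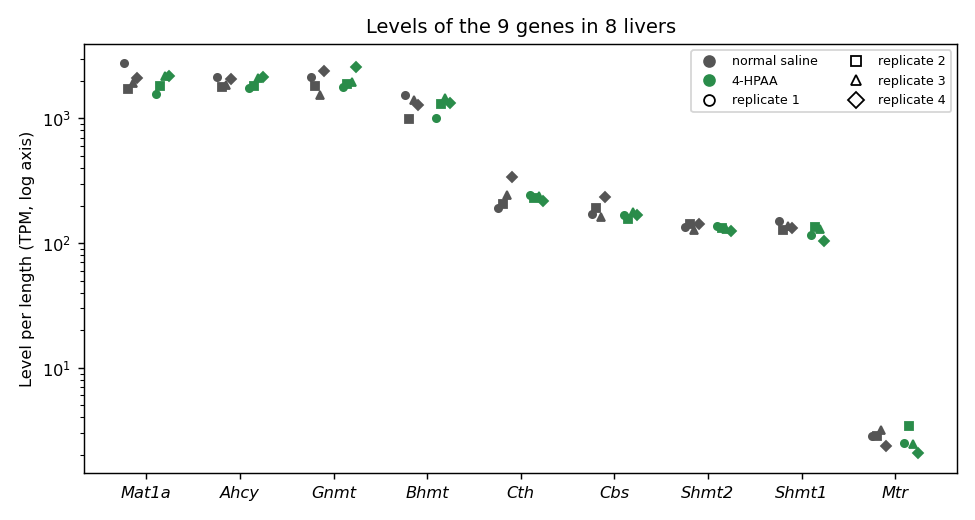
Level per length (TPM, log axis) of the 9 genes in each of the 8 livers, with 1 point per library, colour for the infusion and marker shape for the replicate number. Mat1a, Ahcy, Gnmt and Bhmt lie between 996 and 2757 TPM, Cth, Cbs, Shmt2 and Shmt1 between 104 and 342 TPM, and Mtr between 2.06 and 3.44 TPM, with both infusions over the same range.

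The comparison of the infusions asked whether 2 weeks of portal 4-HPAA changed these transcripts. None of the 9 genes passed the threshold of 0.05 on the adjusted p (edgeR quasi-likelihood test, Benjamini-Hochberg over all 12883 genes), and none had an unadjusted p under 0.05. The background was as empty, with 0 genes called of 12883 (0%) by edgeR, 0 by limma-voom (210 at an unadjusted p under 0.05) and 2 (0.0155%) by DESeq2, and neither of the latter was one of the 9. At an unadjusted p under 0.05 the edgeR fit held 225 genes (1.75%). For each of the 9 genes the CPM of the groups overlapped, whereas 154 of all genes tested (1.2%) had groups that did not overlap.

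Mat1a had 5178, 3465, 3709 and 4229 CPM in normal saline replicates 1 to 4 and 3236, 3414, 4223 and 4400 CPM in 4-HPAA replicates 1 to 4. The highest and the lowest library both carried the number 1, one in each group. The log2 fold change (4-HPAA minus normal saline) was -0.12 with a standard error (SE) of 0.16, and its 95% interval spanned a fold of 0.722 to 1.18.

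Gnmt had 1295, 1167, 949 and 1523 CPM with normal saline and 1174, 1160, 1200 and 1665 CPM with 4-HPAA. Replicate 4 was the highest library of its group on both sides, and the other 3 libraries given 4-HPAA lay within the saline range. The log2 fold change was 0.08 (SE 0.17), and its interval allowed a fold of 0.814 to 1.37, the widest upper bound of the 9 genes.

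Ahcy had 3164, 2799, 2797 and 3241 CPM with normal saline and 2771, 2702, 3110 and 3412 CPM with 4-HPAA. Its libraries formed a lower set of 4 up to 2799 CPM and a higher set of 4 from 3110 CPM, and each set held 2 libraries of either infusion. The group means were 3000 ± 236 CPM and 2999 ± 328 CPM (SD, n = 4 each), and the 95% interval reached from a fold of 0.841 to 1.19.

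The remethylating enzymes differed by little between the infusions beside their spread. Bhmt had 2379, 1642, 2265 and 2083 CPM with normal saline and 1675, 2021, 2273 and 2141 CPM with 4-HPAA, with 1 low library in each group. Its log2 fold change was -0.05 (SE 0.14). Mtr, with only 293 to 419 estimated counts per library, had 12.0, 12.8, 12.9 and 10.1 CPM with normal saline and 12.6, 14.0, 11.4 and 10.4 CPM with 4-HPAA. Here replicate 4 was the lowest of both groups, and the log2 fold change was 0.02 (SE 0.12; fold 0.844 to 1.22).

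Cbs showed the largest difference of the 9 genes, and it did not pass the test. It had 216, 267, 216 and 328 CPM with normal saline and 241, 201, 228 and 234 CPM with 4-HPAA, so that the saline libraries spread over a range that held 3 of the 4 libraries given 4-HPAA. The log2 fold change was -0.18 (SE 0.14, unadjusted p = 0.214, adjusted p = 1.00, edgeR), with a fold between 0.711 and 1.09. Without normal saline replicate 4, the highest library, it was -0.04.

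Cth had 196, 230, 256 and 369 CPM with normal saline and 275, 238, 254 and 237 CPM with 4-HPAA. Normal saline replicate 4 was again the highest and replicate 1 the lowest, which gave the saline group an SD of 74.7 CPM against 17.9 CPM with 4-HPAA. The log2 fold change of -0.06 (SE 0.17) became 0.14 without normal saline replicate 4.

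The serine hydroxymethyltransferases varied least of the 9 genes, with the highest library 1.24 times the lowest for Shmt1 and 1.15 times for Shmt2. Shmt1 had 163, 147, 154 and 161 CPM with normal saline and 151, 148, 151 and 131 CPM with 4-HPAA, and the one library given 4-HPAA outside the saline range was replicate 4. Its log2 fold change was -0.11 (SE 0.08, unadjusted p = 0.189, adjusted p = 1.00, edgeR). Shmt2 had 164, 185, 161 and 182 CPM with normal saline and 181, 166, 160 and 171 CPM with 4-HPAA. Its groups lay almost wholly over each other, with a log2 fold change of -0.03 (SE 0.08) and a fold between 0.871 and 1.11.

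**Figure D2:**
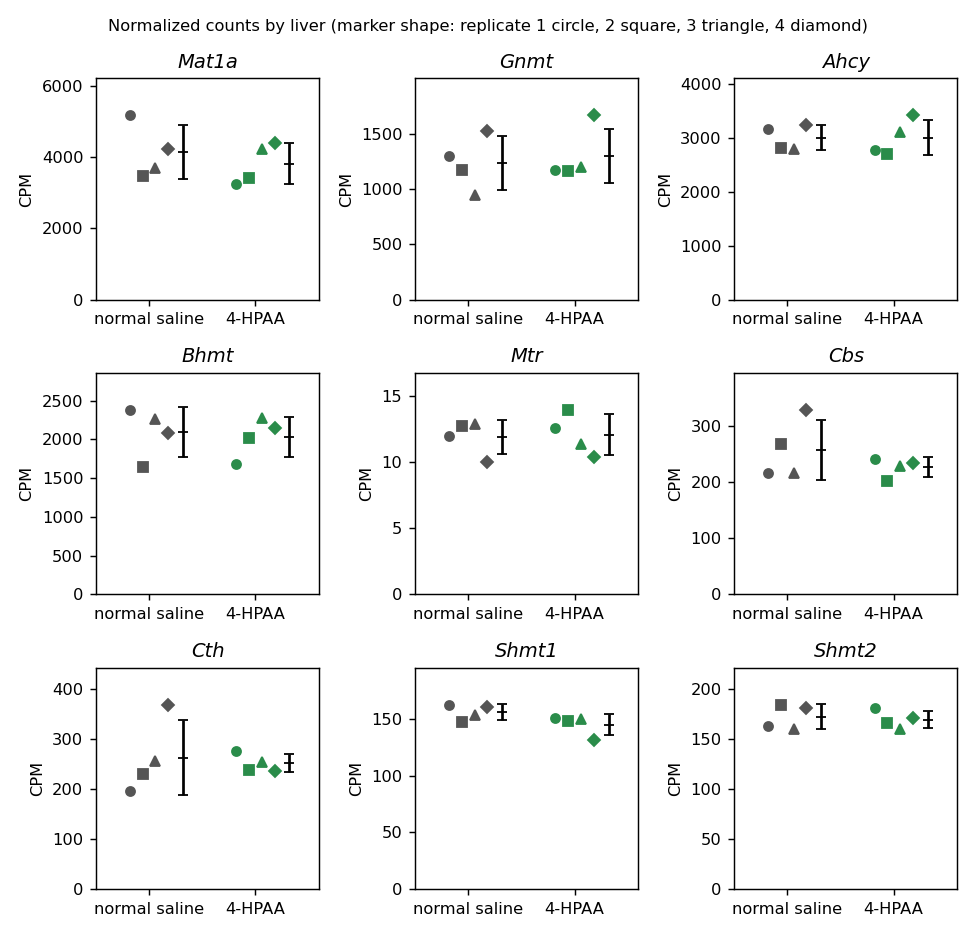
Normalized counts (CPM) of each gene in each library, with 4 points per infusion, marker shape for the replicate number, and the bar beside the points giving the mean ± SD (n = 4). In all 9 panels the points of normal saline and 4-HPAA overlap, and the saline libraries of Cbs (216 to 328 CPM) and Cth (196 to 369 CPM) are the most spread against those of 4-HPAA.

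Across the 9 genes, 2 log2 fold changes were above 0 and 7 below, with a median of -0.05 beside 0.0007 over all genes tested. Of all genes tested, 6489 were above 0 and 6394 below. The split of the 9 genes was not stable. It was 3 and 6 with RLE size factors, 5 and 4 (median 0.0065) without normal saline replicate 1, 4 and 5 without 4-HPAA replicate 1, and 1 and 8 without normal saline replicate 3, without 4-HPAA replicate 4 or without the 2 libraries high in globin RNA (normal saline replicate 2 and 4-HPAA replicate 4). The median absolute log2 fold change was 0.06 for the 9 genes and 0.07 for all genes. The SD of log2 CPM over the 8 libraries had a median of 0.20 for the 9 genes and 0.18 for all genes.

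Isozymes and partners of the 9 enzymes were measured in the same fit. Mat2a and Mat2b encode the catalytic and the regulatory subunit of the methionine adenosyltransferase found outside adult hepatocytes, Bhmt2 the homologue of Bhmt that uses S-methylmethionine (reads of stretches alike in both could be split between them), Mtrr the reductase that keeps methionine synthase active, and Ahcyl1 and Ahcyl2 are homologues of Ahcy. All 6 had a log2 fold change below 0, as had 6394 of the 12883 genes tested. The 6 lay between -0.10 (Mat2a, SE 0.09) and -0.03 (Ahcyl1, SE 0.07), and none passed the test (0 of 6 called, 0 of 6 with an unadjusted p under 0.05). Without normal saline replicate 3 or without 4-HPAA replicate 1, 5 of the 6 were below 0. Mat2a had 39.5 ± 3.90 CPM in the saline group and 36.8 ± 2.18 CPM in the other (SD, n = 4 each), and the groups overlapped.

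**Figure D3:**
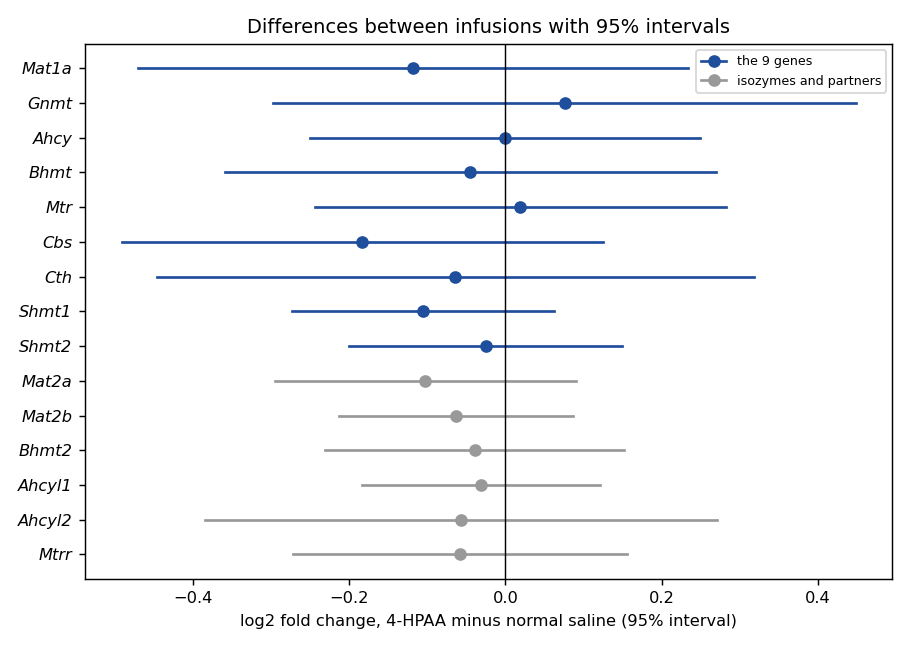
Log2 fold change (4-HPAA minus normal saline) of the 9 genes and of 6 isozymes and partners, with points for the estimate and lines for the 95% interval of the edgeR fit. Every interval crosses 0, from Gnmt at 0.08 to Cbs at -0.18.

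A wider list of 65 pathway genes held 62 that were tested, of which 25 were higher and 37 lower with 4-HPAA, and none passed the test or had an unadjusted p under 0.05. Of all genes tested, 6489 were higher and 6394 lower. The split of the list turned to 38 higher and 24 lower without normal saline replicate 4, and to 35 and 27 without 4-HPAA replicate 2. It was 19 and 43 without 4-HPAA replicate 4. Aldh1l2, Phgdh and Psat1, of mitochondrial folate oxidation and serine synthesis, had fewer than 10 counts in at least 1 library and were not tested. Of the folate cycle and transport genes 3 were higher and 11 lower. The split was 3 higher and 2 lower for choline and betaine oxidation, and the same for serine synthesis and glycine cleavage. It was 6 and 4 for cysteine use and sulfide oxidation, 3 and 5 for methyltransferases that use S-adenosylmethionine and its transport, 5 and 3 for methionine salvage and polyamines, and 2 and 4 for cobalamin handling.

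The smallest unadjusted p of the list belonged to Lmbrd1, which takes part in the lysosomal release of cobalamin, with 68.1 ± 2.30 CPM against 73.6 ± 2.39 CPM (normal saline and 4-HPAA, SD, n = 4 each) and a log2 fold change of 0.11 (SE 0.06, edgeR unadjusted p = 0.105). The reduced folate carrier Slc19a1 had a log2 fold change of -0.15 (SE 0.09). Among the other groups the gene with the smallest p was Mri1 of methionine salvage at 0.14 (SE 0.10), Csad, which makes hypotaurine, at -0.36 (SE 0.28), Pipox, which oxidizes sarcosine, at -0.09 (SE 0.08), Amt of glycine cleavage at -0.10 (SE 0.09), and As3mt, the arsenite methyltransferase, at -0.17 (SE 0.20). For each of these genes the groups overlapped.

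Ratios of paired enzymes within a library do not depend on how libraries were scaled. Mat1a exceeded Mat2a by a median ratio of 84.7 in TPM, between 69.9 and 99.5 in single libraries, with medians of 84.7 for normal saline and 87.4 for 4-HPAA. Bhmt exceeded Mtr by a median ratio of 490, from 348 to 648, and the highest ratio was in 4-HPAA replicate 4, where Mtr was low. The ratio of Gnmt to Mat1a was 0.926 (median) with normal saline and 1.09 with 4-HPAA.

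That last ratio differed by 0.19 on the log2 scale between the means, the largest of the 5 ratios computed, and was not distinguished from the spread (exact permutation test, two-sided, p = 0.229, adjusted over 5 ratios 0.667). It was 0.11 without normal saline replicate 1, 0.12 without normal saline replicate 3 and 0.28 without normal saline replicate 4. Cbs to Cth had a median of 0.709 (p = 0.400 by the same exact test) and Shmt1 to Shmt2 of 0.964 (p = 0.371 by the same exact test). For Mat1a to Mat2a the exact permutation p was 0.943 and for Bhmt to Mtr 0.629. With 4 libraries against 4 the smallest p possible was 0.0286.

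Between libraries the 9 genes did not move as one. Of 36 pairs, 20 had a positive and 16 a negative Pearson r of log2 CPM over the 8 libraries, with a median of 0.11. The pair Ahcy and Mtr had r = -0.921 (exact permutation p = 0.000918, adjusted over 36 pairs 0.0330) and Spearman's rho = -0.881 (exact permutation p = 0.00724, adjusted 0.0652). It was the one pair past 0.05 after adjustment by Pearson, none passed by Spearman, and 7 had an unadjusted Pearson p under 0.05. Leaving out replicate 4 of both groups, the libraries farthest from the median of Ahcy, r was -0.879, with an adjusted exact p of 0.183 over the 6 libraries left.

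In the 4 libraries of the higher Ahcy set Mtr ranged from 10.1 to 12.0 CPM, and in the 4 of the lower set from 12.6 to 14.0 CPM. The relation within the sets was not tested. Gnmt varied in the same direction as Ahcy (r = 0.835, adjusted p = 0.0670 by exact permutation) and in the opposite direction to Mtr (r = -0.818, adjusted p = 0.0909 by exact permutation). Both relations were weaker without replicate 4 of both groups, at 0.533 and -0.387. Bhmt ran against Shmt2 (r = -0.823), Mat1a with Ahcy (r = 0.83) and Cbs with Shmt2 (r = 0.756), each at an adjusted p of 0.0909 by exact permutation. Without replicate 4 of both groups r was -0.963 for Bhmt and Shmt2 and 0.923 for Mat1a and Ahcy. Each of these had an adjusted p of 0.183 by exact permutation. Cbs and Shmt2 were then at 0.801.

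Markers of several other liver cell types were at an extreme in the same libraries. Replicate 4 of both groups had the lowest summed levels of 6 Kupffer cell markers (81.7 and 73.8 CPM for normal saline and 4-HPAA, against 99.6 to 257 CPM in the other 6 libraries), of 6 sinusoidal endothelial markers (101.9 and 100.6 CPM against 127 to 167 CPM) and of 6 stellate cell markers (107 and 118 CPM against 137 to 197 CPM). The same pair of libraries had the highest hepatocyte marker sums, 127600 and 127200 CPM against 95370 to 113500 CPM. Alb made up most of these sums (100800 and 96890 CPM in the pair). Alb and Serpina1a were highest in the pair, while Apoa1, Ttr, Cps1 and Tat did not single it out. Cps1 was at 4410 and 4538 CPM there, against 4714 CPM in normal saline replicate 1. The lowest hepatocyte sum, 95370 CPM, was in 4-HPAA replicate 3, a library of the higher Ahcy set. Every marker of these 4 lists had 10 counts or more in each library. Single markers could differ. Lyve1 of the endothelial list was at 15.5 CPM in 4-HPAA replicate 4, the second highest library. It was at 5.84 CPM in normal saline replicate 4. In the stellate list Lrat, Dcn and Reln were lowest in the pair, while Des, Rgs5 and Col1a1 did not single it out. Dcn made up much of the stellate sum, with 54.9 and 61.6 CPM in the pair. The pancreatic acinar sum, almost all of it from Cela1, was also lowest in replicate 4 of both groups. It was at 7.87 and 9.34 CPM there, against 9.62 to 14.2 CPM. The lists of cholangiocytes and lymphocytes did not set the pair apart. The summed cholangiocyte markers were at 23.4 CPM in normal saline replicate 4, the lowest library, and at 38.0 CPM in 4-HPAA replicate 4, the second highest, and the lymphocyte markers were at 2.41 and 2.03 CPM within a range of 1.49 to 3.15 CPM. The part of these markers in the relation of Ahcy, Gnmt and Mtr was not tested.

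Ahcy, Gnmt and Mtr formed some of the pairs described here, and the 250 bases before the RefSeq start of each gene are shown. The bases are those of GRCm38.p6, written 5′ to 3′ on the gene's own strand, which is the minus strand for all 3. Capitals mark matches on either strand to GGGCGG, known as the GC box, to CCAAT, to TATAAA, known as the TATA box, to AGGTCA, a motif of nuclear receptors, or to CACGTG, known as the E-box. The windows are chr2:155074498-155074747 for Ahcy, chr17:46729166-46729415 for Gnmt and chr13:12258114-12258363 for Mtr.
Ahcy: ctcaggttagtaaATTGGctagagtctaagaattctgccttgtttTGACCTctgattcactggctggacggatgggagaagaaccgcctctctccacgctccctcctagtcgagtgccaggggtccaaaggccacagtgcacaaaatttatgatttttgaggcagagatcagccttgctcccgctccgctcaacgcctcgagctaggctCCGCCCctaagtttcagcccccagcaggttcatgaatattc
Gnmt: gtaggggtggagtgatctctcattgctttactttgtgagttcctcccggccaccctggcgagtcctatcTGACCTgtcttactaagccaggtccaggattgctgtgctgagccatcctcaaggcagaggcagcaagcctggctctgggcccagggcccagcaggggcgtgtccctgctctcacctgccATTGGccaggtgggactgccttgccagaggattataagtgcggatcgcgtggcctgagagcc
Mtr: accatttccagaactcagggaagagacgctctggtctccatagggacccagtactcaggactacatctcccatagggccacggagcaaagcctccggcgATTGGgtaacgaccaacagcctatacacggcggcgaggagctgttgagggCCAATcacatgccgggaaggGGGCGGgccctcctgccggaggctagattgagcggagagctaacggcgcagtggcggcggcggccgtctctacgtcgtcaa

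Of the 9 genes, 7 had such a window in the promoter set used, and Mat1a and Cth had none there. Ahcy and Gnmt each held 1 AGGTCA match, which 14% of all 32851 windows of this length held, and Mtr held none. Each of the 3 windows held CCAAT (33.8% of all windows), Ahcy and Mtr also held 1 GGGCGG match (32.7%), and none held TATAAA (12.4%) or CACGTG (6.02%). The window of Bhmt (chr13:93637759-93638008) held 3 AGGTCA matches, at 234, 72 and 47 bases before the RefSeq start. Part of it lay inside the GENCODE span of the gene, which ends at 93637961. The window of Shmt1 held 4 GGGCGG matches, some of which overlap, and that of Shmt2 held no match to any of the motifs. That of Cbs held 2 GGGCGG, 2 CCAAT and 1 CACGTG match. How many of all windows held several matches was not counted. A match of this kind is a description of the letters only.

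**Figure D4:**
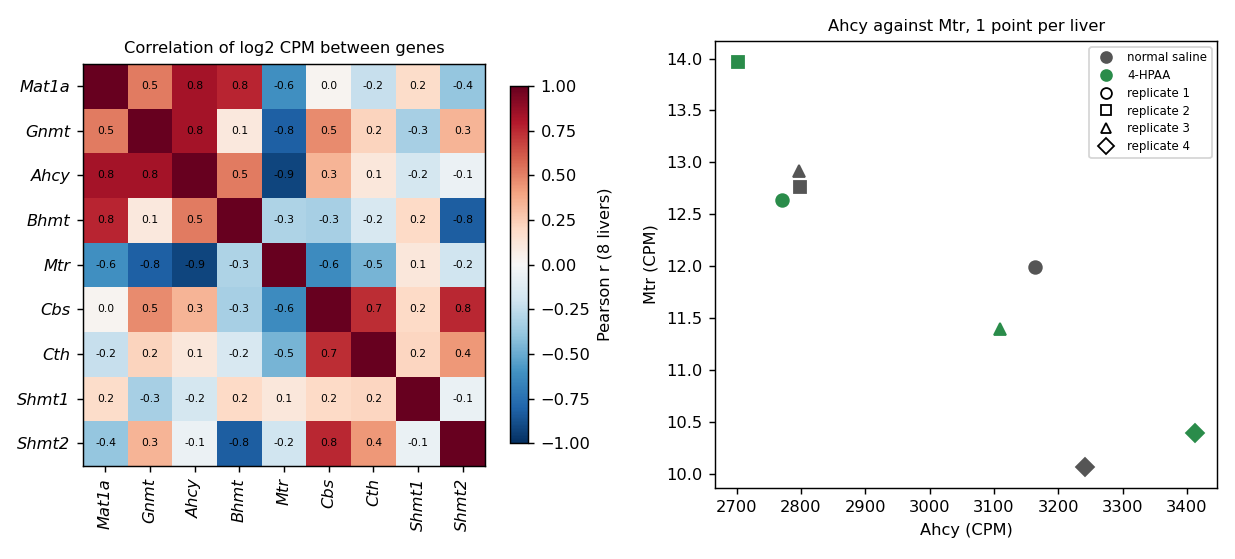
Left, Pearson r of log2 CPM between each pair of the 9 genes over the 8 livers, with colour and printed value for r. Right, Mtr against Ahcy in CPM with 1 point per library, colour for the infusion and marker shape for the replicate number, where the 4 libraries from 3110 CPM of Ahcy upward lie at 12.0 CPM of Mtr or less and the other 4 at 12.6 CPM or more.

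For each of the 9 genes, the gene whose log2 CPM followed it most closely over the 8 libraries, of 12882 compared, was picked as a description, with no test. It was Lgalsl for Mat1a (r = 0.961), Apom for Gnmt (0.977), Arg1 for Ahcy (0.98), Nom1 for Bhmt (0.965) and Crim1 for Mtr (0.991). For Cbs it was Pigs (0.973), for Cth Syt11 (0.968), for Shmt1 Lmo7 (0.958) and for Shmt2 Tmem176a (0.963).

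The table lists 49 transcripts of the 9 genes, and 32 had at least 10 counts in every library. No transcript of the 9 genes passed the test, as 0 of 25533 transcripts (0%) did over the whole table, and 1 of the 32 had an unadjusted p under 0.05, beside 979 (3.83%) of all. Estimated counts of transcripts that share exons are split by the quantification, so shares of a gene are estimates.

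The counts of 4 genes came almost wholly from a single coding transcript. The longest Ahcy transcript ENSMUST00000054607 held a median of 99.4% of the counts of its gene, Cth ENSMUST00000118539 held 97.3%, Mtr ENSMUST00000099856 held 96.3% and Gnmt ENSMUST00000002846 held 94.96%. The top transcript of Bhmt held 86.3%, that of Shmt2 78.7% and that of Shmt1 73.7%. Mat1a was split between the 9-exon ENSMUST00000047286 with 75.3 ± 4.03% in normal saline and 72.3 ± 4.94% in 4-HPAA, and the 10-exon ENSMUST00000225720 with 24.0 ± 3.91% and 27.0 ± 4.64% (SD, n = 4 each). The difference between the infusions was within that spread. Cbs was divided between ENSMUST00000078509 (median 51.1%) and ENSMUST00000067801 (35.5%), both of which encode protein, and neither share differed between the infusions by more than its SD.

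The transcript with the unadjusted p under 0.05 was ENSMUST00000219239, a minor coding transcript of Shmt2. It held 17.1, 15.4, 17.3 and 17.9% of the counts of the gene with normal saline and 15.7, 13.4, 13.3 and 14.8% with 4-HPAA. Only 4-HPAA replicate 1 reached into the saline range. The log2 fold change was -0.26 (SE 0.11, unadjusted p = 0.0474, adjusted p = 1.00 over 25533 transcripts, edgeR), while the major transcript ENSMUST00000026470 was at 0.05 (SE 0.08).

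Bhmt had a retained-intron transcript, ENSMUST00000124193, with 13.9, 14.8, 18.1 and 13.7% of the gene's counts with normal saline and 11.9, 12.6, 13.7 and 6.17% with 4-HPAA. The groups met at 13.7%, and 4-HPAA replicate 4 was far below the rest. The log2 fold change of -0.49 (SE 0.25, edgeR unadjusted p = 0.0797) was -0.30 (SE 0.20, edgeR unadjusted p = 0.169) without that library. The retained-intron transcript ENSMUST00000147112 of Gnmt, at the end of the gene, held 5.62 ± 0.953% in the saline group and 4.35 ± 0.786% in the other (SD, n = 4 each), with overlapping groups.

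**Figure D5:**
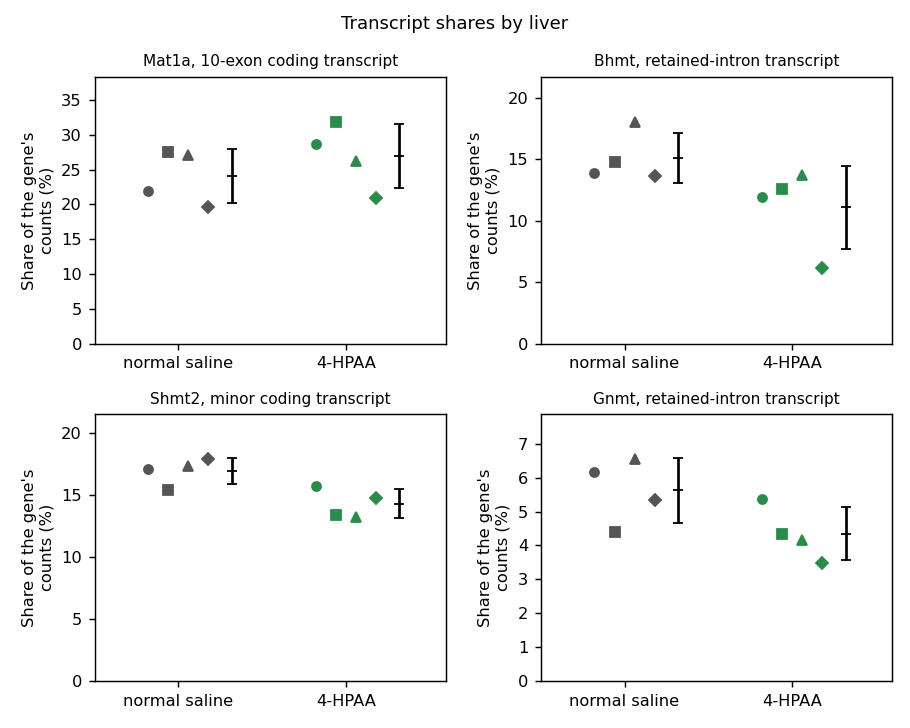
Share of the gene's estimated counts (%) held by 4 transcripts in each library, with 4 points per infusion, marker shape for the replicate number, and the bar beside the points giving the mean ± SD (n = 4). The Bhmt retained-intron transcript is at 6.17% in 4-HPAA replicate 4 and between 11.9% and 18.1% in the other libraries, and in all 4 panels the infusions overlap.

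All genes lie on the GRCm38 assembly, and coordinates are those of GENCODE. Mat1a is on the plus strand of chromosome 14 at 41105035 to 41124412, and the other 8 genes are on minus strands. Bhmt (chromosome 13, 93616675 to 93637961) and Mtr (chromosome 13, 12182712 to 12258113) share a chromosome, as do Cbs (chromosome 17, 31608894 to 31637238) and Gnmt (chromosome 17, 46725664 to 46729168). Ahcy is on chromosome 2, Cth on chromosome 3, Shmt2 on chromosome 10 and Shmt1 on chromosome 11. Shmt1 overlaps the end of Smcr8 on the opposite strand by 184 bases, and Shmt2 overlaps Ndufa4l2 on the opposite strand by 32 bases. Genes known by Gm numbers and not analysed here overlap others: Gm26904 lies opposite all 3505 bases of Gnmt, Gm15622 opposite 3252 bases of Bhmt, Gm45609 opposite 317 bases of Ahcy and Gm24945 opposite 126 bases of Shmt1, while Gm43314 shares strand and 2231 bases with Cth. Reads from such stretches could belong to either gene. Mtr has the longest span with 75402 bases and Gnmt the shortest with 3505 bases.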

How the data were processed

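Paired-end liver reads were pseudo-aligned by the authors with kallisto to mouse transcripts of GRCm38.p6, after FastQC 0.11.9, and the estimated counts of each transcript in each library were deposited without normalization. The study's methods name NCBI transcripts, while the identifiers are those of Ensembl. Libraries came from a directional mRNA kit and kallisto was run with its default settings per the study's methods. Whether strand entered the counting is not stated further.

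Of 119414 transcripts, 116728 were matched to 35975 genes of GENCODE M21, summed per gene and rounded to whole numbers, and 2686 were left out. The test, edgeR 4.0.16 in R 4.3.3, took the genes that reached 10 counts in all 8 libraries (quasi-likelihood F test, TMM, Benjamini-Hochberg, threshold 0.05), and transcripts likewise. Intervals are at 95%. TPM used annotated exon lengths, not effective lengths. Log2 CPM used a prior count of 2. How much of the error came from counting and how much from the spread between libraries was not tested.

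As alternatives served limma-voom of limma 3.58.1, the Wald test of DESeq2 1.42.0, scaling by RLE or by total counts, other filters, a replicate block, libraries left out and single transcripts. The steps were tested on simulated data. The genes and lists were chosen with earlier results of these data known, and 2 genes of the planned lists are not reported here. Named genes were the 9 enzymes, 6 isozymes and partners, the pathway gene of smallest unadjusted p in each group of the lists used, and the most closely correlated gene of each enzyme. The red blood cell markers, not described with the results, had a summed level of 247 to 2560 CPM with normal saline and 152 to 735 CPM with 4-HPAA. In the same order of groups, the cholangiocyte markers were at 23.4 to 45.5 and 23.9 to 38.0 CPM. The lymphocyte markers were at 1.99 to 3.15 and 1.49 to 2.60 CPM.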

Additional observations from a re-analysis of the deposited data

Results flagged for a closer look

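Of 58 groups of 4 libraries examined for a value far from the rest (a gap to the nearest library above Dixon's 95% critical share of the range of the group), 3 stood out, where chance gives about 2.9. Gnmt was at 1665 CPM in 4-HPAA replicate 4 against 1160 to 1200 CPM in the other libraries of the group. Shmt1 was at 131 CPM in the same library against 148 to 151 CPM. The share of the counts of the 9 genes on retained-intron transcripts was 5.04% in normal saline replicate 3 against 3.47 to 3.66% in the other saline libraries. Most of these counts were on the Bhmt transcript ENSMUST00000124193.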

How the results depend on the processing

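None of the 9 genes, of the 62 pathway genes or of the 32 transcripts passed the threshold under any alternative run, and the lowest unadjusted p of any of the 9 genes was 0.0977. Over all genes, 0 were called by edgeR (225 at an unadjusted p under 0.05), 2 by DESeq2 and 0 to 1 with a library left out, the 1 without 4-HPAA replicate 1. Of 162 values of the 9 genes under alternatives, 139 kept their direction and 23 turned, and Cbs and Shmt1 turned under none. Gnmt was at -0.10 (log2 fold change) without the 2 libraries high in globin RNA, and Cth at 0.17 without replicate 4 of both groups. Ahcy, at 0 in effect, was at 0.0016 by DESeq2 and by RLE scaling, at 0.0042 and 0.0041 with the looser filter and with none, and at 0.0089 by its most abundant transcript, by which Bhmt was at 0.0335 and Shmt2 at 0.0456. With counts in place of levels per length, the log2 ratio of Bhmt to Mtr differed by -0.0575 in place of 0.0947. The causes were not tested.

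With each library left out in turn, log2 fold changes ranged from -0.20 to 0.0065 for Mat1a, -0.0733 to 0.193 for Gnmt, -0.0746 to 0.0459 for Ahcy, -0.146 to 0.0398 for Bhmt, -0.0575 to 0.0801 for Mtr, -0.26 to -0.04 for Cbs, -0.18 to 0.14 for Cth, -0.14 to -0.07 for Shmt1 and -0.0586 to 0.0067 for Shmt2. The ratio differences ranged from -0.0803 to 0.0891 for Mat1a to Mat2a and from -0.0402 to 0.222 for Bhmt to Mtr. They ranged from 0.108 to 0.282 for Gnmt to Mat1a, from -0.208 to -0.0479 for Cbs to Cth and from -0.171 to -0.0623 for Shmt1 to Shmt2. Pairs of genes past 0.05 numbered 1, with 2 from deviations from the group means and 0 without replicate 4 of both groups, where Ahcy and Mtr had r = -0.879.

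The replicate numbers were not taken to pair the libraries, since the labels do not say that they do. The correlation of same-numbered deviations was 0.04 to 0.48, over 0.1 in 3 of 4 pairs. Between libraries of different number it ran from -0.48 to 0.47. With that, 4 of 8 libraries correlated best with their own number, and these values do not settle whether the numbers pair the libraries. Blocking on the replicate number, 0 genes were called, 336 had an unadjusted p under 0.05, and 0 of the 9 genes were called.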

Other observations

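Transcripts annotated as retained introns, chosen for a count after their values were seen, were mostly lower with 4-HPAA in the 9 genes. Of 11 tested, 10 had a log2 fold change below 0, with a median of -0.27, against 61.7% of 4703 such transcripts in other genes, with a median of -0.07. None of the 11 had an unadjusted p under 0.05 and none was called by edgeR. Transcripts of one gene share reads, so the 11 are not independent. Of the other 21 transcripts tested of the 9 genes, 11 were lower.

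The libraries were uneven. These transcripts held 1.84% of the counts of the 9 genes in 4-HPAA replicate 4, the lowest library, between 3.22% and 3.66% in 6 libraries, and 5.04% in normal saline replicate 3. Most of these counts were on the Bhmt transcript ENSMUST00000124193, with 3775 in 4-HPAA replicate 4 and 12480 in normal saline replicate 3. The share thus largely repeats the values of that transcript. Without 4-HPAA replicate 4, an alternative chosen after seeing the data, 9 of 12 were lower, against 55.8% of 4932 in other genes. Of the other 21 transcripts of the 9 genes, 13 were lower without that library. The retained-intron share of other genes was also lowest in that library, at 1.94% against 2.06 to 2.35% in the rest.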
